A study of Mus musculus with 4 samples.

Results

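Ccl5-high CD8 cells are the CD8 T cells of a tumour-draining lymph node that carry the chemokine transcript Ccl5. They were chosen by counts of unique molecular identifiers (UMIs), each standing for 1 captured transcript. A member had at least 300 detected genes, at most 10% mitochondrial UMIs, at least 2 UMIs of Cd8a and Cd8b1 together, no UMI of Cd4, Cd79a or Trdc, and at least 2 UMIs of Ccl5. This gave 1119 members of 48597 barcodes in all, with 278 in the library WT-CTRL, another 298 in WT-DOX, then 293 in KO-CTRL, and 250 for KO-DOX. The 18728 barcodes that met the same rule whatever their Ccl5 are called Cd8-positive cells here. Of these, 17028 had no Ccl5 UMI and served as the comparison, and 581 had exactly 1.

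The 4 libraries came from flow-sorted live T cells of the lymph nodes draining MC38-OVA tumours, that is, mouse colon carcinoma cells that also make the model antigen ovalbumin. WT-CTRL came from control-genotype mice under control treatment, WT-DOX from control-genotype mice given doxorubicin (an anthracycline that damages DNA), KO-CTRL from mice with Cd274, the gene of PD-L1, deleted in dendritic cells under control treatment, and KO-DOX from such mice given doxorubicin. The sources used here do not give the Cre driver, the age of the mice or the number of mice in a library. Where 4 values follow each other below without names, they are in the order in which the libraries were just introduced, called library order. Each group is 1 library, so no difference between libraries can be set against the spread between mice, and every interval covers counting error only.

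CD8 T cells leave the thymus as naive cells that hold the transcription factors Tcf7 and Lef1 and recirculate through lymph nodes, which they enter with the chemokine receptor Ccr7. After antigen, or after strong cytokine signals without foreign antigen (the virtual memory route), they gain Cd44, Il2rb, Ly6c2 and Ccl5 transcripts. Effector cells further load granules with granzymes and perforin, which kill target cells, while central memory cells keep Ccr7.

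Most members carried T cell receptor genes. Among members, the share of cells with a UMI was 92.4% to 93.9% for Cd3d and 90% to 95.3% for Cd3e over the 4 libraries, both being CD3 chains of the T cell receptor. Cd3g, a further CD3 chain, had a UMI in 84.4% to 91.1% of members. Trac, the constant part of the receptor alpha chain, had one in 54.0% to 58.0%, against 43.2% to 46.4% of cells without Ccl5. The class is named by its leading gene, and not as effector cells, since granzymes were found in few members (values below). Over all cells of a library the median was 2985 to 3066 UMIs. No doublet caller was run. Instead, 43, 32, 33 and 27 members (library order) had over 3 times the median UMIs of their library or a transcript of a B cell, myeloid or Foxp3 list. Some results are also given without them, and others, such as the split of members by granzymes, are given with them only. Between 175 and 271 barcode sequences were shared by each pair of libraries, and a member in both libraries occurred for 1 barcode (KO-CTRL and KO-DOX). The median member held 4627, 4630.5, 4681 and 4347.5 UMIs, against 3533.5, 3495, 3459 and 3525 in cells without Ccl5, so shares of cells with a UMI are also given with each cell thinned to 1500 UMIs. A deletion in dendritic cells is not checked by T cells: Cd274 stood at 55.7, 44.6, 44.2 and 51.2 counts per 1e+06 UMIs (CPM) in members.

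Members formed nearly the same share of Cd8-positive cells in each library. The share was 5.70% (exact Clopper-Pearson 95% interval 5.07 to 6.39) in WT-CTRL and 5.88% (5.25 to 6.56) in WT-DOX. The knockout libraries had 6.21% (5.54 to 6.94) under control treatment and 6.15% (5.43 to 6.94) under doxorubicin. Each interval overlaps the other 3. The ratio of WT-DOX to WT-CTRL was 1.03 (95% interval 0.880 to 1.21) and that of KO-DOX to KO-CTRL 0.991 (0.841 to 1.17). The ratio of KO-CTRL to WT-CTRL was 1.09 (0.929 to 1.28) and that of KO-DOX to WT-DOX 1.05 (0.890 to 1.23). With every cell thinned to 1500 UMIs before the rule, the shares were 2.84%, 3.08%, 3.17% and 3.38%. A share depends on how many cells of the other kinds were sorted, and the gate used for the sort is not given here.

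**Figure D1:**
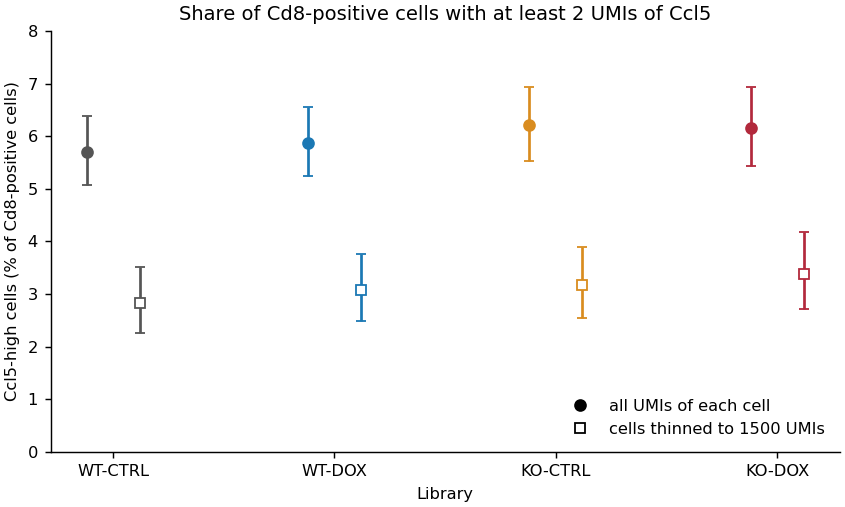
Share of Cd8-positive cells that were Ccl5-high (y axis, percent) in each of the 4 libraries (x axis), with exact 95% Clopper-Pearson intervals. Filled circles use all UMIs and lie between 5.70% and 6.21%, open squares use cells thinned to 1500 UMIs and lie between 2.84% and 3.38%, and the intervals of all 4 libraries overlap within each series.

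Ccl5 itself chose the members, so its level is a description. A member held a median of 5, 6, 8 and 9 Ccl5 UMIs in library order, and the upper quartile was 12, 15, 18 and 17. The highest cell had 90, 100, 195 and 251 UMIs. The tenth of members with most Ccl5 held 39.9%, 39.5%, 40.4% and 43.7% of all Ccl5 UMIs of the class. Summed over members, Ccl5 stood at 1696, 2178, 2447 and 2849 CPM, lowest in WT-CTRL and highest in KO-DOX. Among cells with Cd4 and no Cd8 transcript, 1.77% to 2.14% had at least 1 UMI of Ccl5 and 0.395% to 0.737% at least 2, at median depths of 2985.5 to 3184 UMIs. Of the 35, 29, 56 and 59 barcodes with at least 2 UMIs of the B cell gene Cd79a and no Cd4 or Cd8 transcript, 0 had a Ccl5 UMI in each library, which allows shares whose upper bounds run from 6.06% to 11.9% (exact 95% intervals).

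Ly6c2, Xcl1, Gzmm and Samd3 marked these cells in earlier results of the same data, so they are given without a test. Ly6c2 encodes a surface glycoprotein of memory and effector CD8 cells. It stood at 1478, 1418, 1618 and 1302 CPM in members, in library order, against 376, 320, 378 and 363 CPM in cells without Ccl5. Gzmm, a granzyme, stood at 63.5, 75.6, 72.8 and 77.1 CPM against 2.05, 2.23, 2.61 and 3.48. Samd3, a SAM-domain gene, stood at 44.2, 46.3, 54.3 and 48.9 CPM against 4.22, 3.29, 3.95 and 4.19. Xcl1, the chemokine that draws cross-presenting dendritic cells, stood at 92.0, 141, 86.5 and 51.9 CPM against 17.5, 14.0, 30.3 and 24.6. For each of the 4 genes the lowest library of members lay above the highest library without Ccl5.

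Ly6c2 was the one marker found in most members. A Ly6c2 UMI was present in 91.4%, 90.9%, 88.4% and 88.4% of members, in 29.0% to 33.5% of cells without Ccl5, and in 1.27% to 2.21% of Cd4-positive cells without Foxp3, whose median depth was 2935.5 to 3137.5 UMIs. At 1500 UMIs a cell the members' share was 79.1%, 80.6%, 76.6% and 77.2%. Gzmm was found in 19.1% to 23.8% of members and Samd3 in 18.3% to 22.9%, against 0.129% to 0.412% and 0.295% to 0.481% of those Cd4-positive cells. Xcl1 was found in 24.1% (19.2 to 29.6), 22.8% (18.2 to 28.0), 28.3% (23.2 to 33.9) and 13.6% (9.61 to 18.5) of members, least often in KO-DOX, whose interval overlaps that of WT-DOX. Of the 4 markers, 0 had a UMI in 5.76%, 5.70%, 7.85% and 9.60% of members, and all 4 had one in 3.6%, 1.68%, 3.07% and 0.4%.

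The start regions of the markers are shown because these genes mark the class, and because T-box factors such as T-bet and Eomes, and Runx factors, bind DNA in CD8 cells. The sequences are from RefSeq on GRCm38.p6, run from 250 bases before to 50 after a gene's start, 5′ to 3′ on the gene's strand, and 4 of the 5 marker genes had an entry. They are in lower case, with each match to the T-box letters GGTGTGA or the Runx letters TGTGGTT, on either strand, in capitals. They lie at chr15:75111922-75112221 (minus strand, Ly6c2), chr1:164935473-164935772 (minus strand, Xcl1) and chr10:26229457-26229756 (plus strand, Samd3).
Ly6c2: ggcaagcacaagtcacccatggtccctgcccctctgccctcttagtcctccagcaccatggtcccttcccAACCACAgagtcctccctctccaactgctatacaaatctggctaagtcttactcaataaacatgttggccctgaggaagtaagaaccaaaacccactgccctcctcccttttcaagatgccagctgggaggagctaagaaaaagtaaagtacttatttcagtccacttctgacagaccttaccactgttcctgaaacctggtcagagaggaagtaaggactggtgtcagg
Xcl1: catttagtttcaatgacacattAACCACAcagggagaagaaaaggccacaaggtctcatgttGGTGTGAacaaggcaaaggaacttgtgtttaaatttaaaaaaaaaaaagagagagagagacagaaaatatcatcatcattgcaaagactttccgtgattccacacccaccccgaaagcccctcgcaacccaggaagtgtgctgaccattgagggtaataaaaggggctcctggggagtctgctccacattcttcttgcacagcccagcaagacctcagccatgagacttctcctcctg
Samd3: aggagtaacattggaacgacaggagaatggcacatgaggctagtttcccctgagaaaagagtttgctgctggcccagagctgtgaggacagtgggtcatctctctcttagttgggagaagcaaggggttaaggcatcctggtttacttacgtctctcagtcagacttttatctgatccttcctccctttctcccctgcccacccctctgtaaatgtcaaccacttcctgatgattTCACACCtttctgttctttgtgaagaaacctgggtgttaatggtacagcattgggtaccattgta

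The Ly6c2 stretch held a Runx match, the Xcl1 stretch a match to each motif, and the Samd3 stretch a T-box match 15 bases before the start. At Gzmm the first of 2 annotated starts held neither, and the second, at chr10:79693576-79693875, held a T-box match. Such matches are not particular to these genes: the T-box letters occur in 3.98% and the Runx letters in 5.27% of 32851 promoters of this length. A match is a run of letters, and binding was not measured.

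Ly6c2 and Gzmm were already higher at 1 Ccl5 UMI, below the threshold, than in cells with none, and higher again at 2. Xcl1 did not follow each step. In WT-CTRL its interval at 1 UMI (16.4 to 38.1 CPM) overlapped that at 0 (15.6 to 19.6). It stood there at 76.7 CPM (56.4 to 102) with 2 to 3 UMIs and at 62.9 (43.3 to 88.3) with 4 to 9. Cells just outside the rule, with 1 Ccl5 UMI, had Ly6c2 at 749, 651, 877 and 1008 CPM in library order. Cells just inside it, with 2, had 1036, 1015, 1123 and 1566 CPM. In cells with 10 or more, Ly6c2 stood at 1942, 1815, 1888 and 1424 CPM, so that KO-DOX, unlike the other 3 libraries, was no higher there than at 2 UMIs. Gzmm stood at 12.8, 10.4, 20.2 and 23.9 CPM with 1 UMI and at 37.4, 15.3, 34.5 and 39.9 CPM with 2. In cells with 10 or more, Gzmm reached 83.4, 114, 113 and 112 CPM. Lef1, a transcription factor of naive cells, took most of its step at the first UMI. It stood at 767, 723, 668 and 665 CPM in cells with 0 Ccl5 UMIs and at 443, 436, 323 and 358 CPM in cells with 1. In the groups with 2 to 3, 4 to 9 and 10 or more it lay between 335 and 405 CPM in all 4 libraries.

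The proliferation gene Mki67 followed another course. It stood at 171, 103, 313 and 121 CPM in cells with 2 to 3 Ccl5 UMIs and at 212, 162, 235 and 199 CPM in cells with 4 to 9. In cells with 10 or more it stood at 113, 5.36, 4.47 and 15.5 CPM. In every library except WT-CTRL the highest Ccl5 cells thus held less Mki67 than cells with no Ccl5 (45.9, 19.3, 57.9 and 60.1 CPM). These steps share libraries and depth, and they are given as a description.

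**Figure D2:**
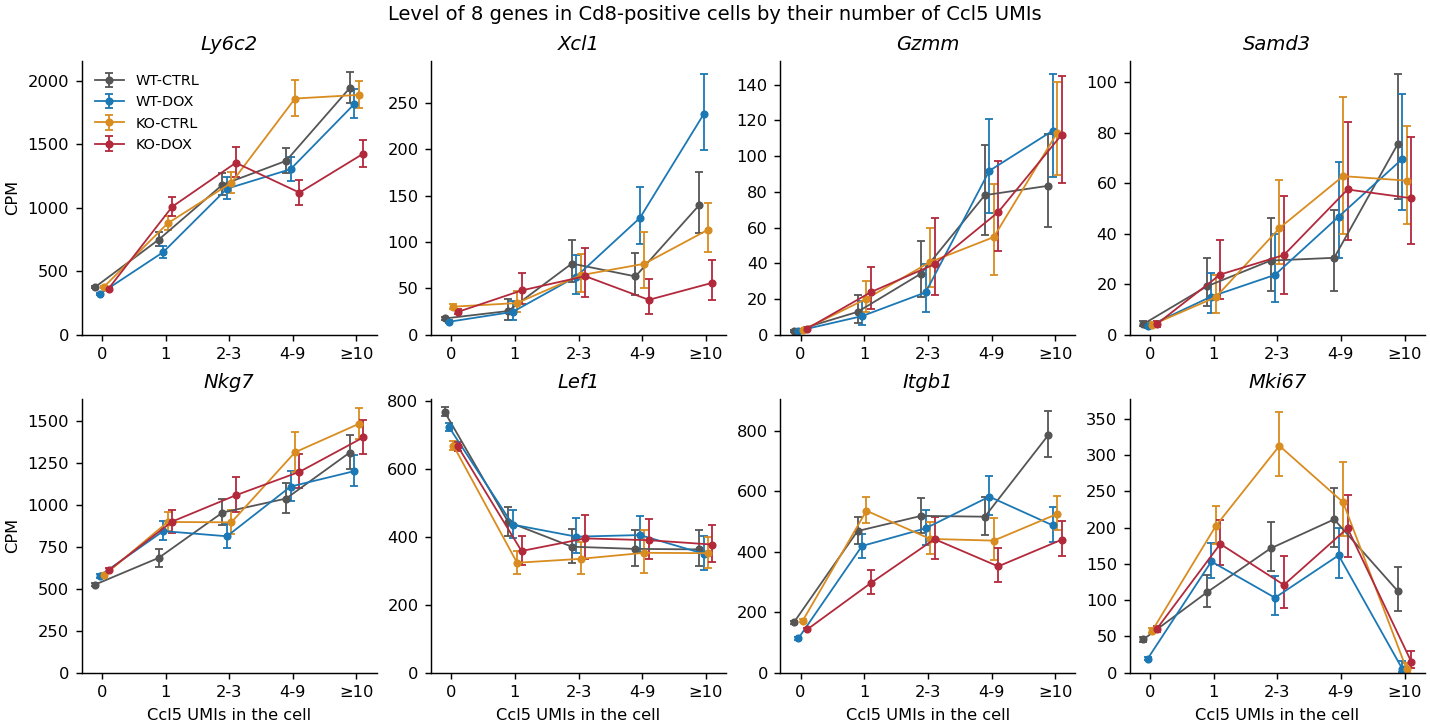
Level of 8 genes (y axes, CPM of summed UMIs, linear from 0) in Cd8-positive cells grouped by their number of Ccl5 UMIs (x axes), with exact Poisson 95% intervals and a line for each library. Ly6c2, Gzmm, Samd3 and Nkg7 are higher at 10 or more Ccl5 UMIs than at 0 in every library, Lef1 is lower from the first UMI on, and Mki67 in the highest group is 4.47 to 15.5 CPM in 3 libraries and 113 CPM in WT-CTRL.

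Genes outside the rule were compared between members and cells without Ccl5 on UMIs summed per library, with edgeR's quasi-likelihood test, the library as a block, and Benjamini-Hochberg adjustment. The 6 genes of the rule were left out. Of 11107 genes, 576 (5.19%) were at least 2-fold higher at an adjusted p of at most 0.05 and 146 (1.31%) at least 2-fold lower, and these are the genes called below. The median over all genes was -0.01 on the log2 scale. The same sort gave both classes, so the unit of this test is the library (n = 4 in each class). With the library as a block, p-values set the class difference against how much that difference varied over these 4 libraries. Each library is another combination of genotype and treatment, so they are not replicates of 1 group.

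Granule genes were higher in members as a group. Of 11 tested granule genes other than Gzmm, 7 were called higher and 0 lower, and their median log2 fold was 1.95. Gzma, a granzyme, stood at 1395, 669, 849 and 720 CPM in members against 38.2, 43.8, 45.9 and 81.3 CPM in cells without Ccl5 (log2 fold 4.21, SE 0.19, edgeR adjusted p = 2.0e-12). Gzmb stood at 150, 117, 189 and 156 CPM against 6.55, 5.41, 16.2 and 23.4, a log2 fold of 3.79 (SE 0.19). Gzmk stood at 39.9, 46.9, 96.7 and 78.6 CPM against 4.88, 5.02, 10.6 and 14.2, a log2 fold of 3.04 (SE 0.14). Nkg7, a granule membrane protein, was 1093, 1038, 1223 and 1237 CPM against 526, 578, 581 and 610. In all 4 libraries each of these genes was higher in members and the classes did not overlap. Perforin (Prf1) stood at 38.1 to 42.3 CPM against 30.0 to 31.0, a log2 fold of 0.47 that was not called, and Ctsw at 0.91 was not called either.

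The granzyme values came from few cells. Gzma had a UMI in 28, 26, 28 and 21 members and its highest cell held up to 273 UMIs. A UMI of Gzma or Gzmb was found in 11.2%, 10.7%, 10.2% and 13.6% of members, in 1.26% to 2.76% of cells without Ccl5, and in 0.404% to 1.71% of Cd4-positive cells. Nkg7, by contrast, was found in 94.3% to 96.9% of members.

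Killer cell receptors stood far higher in members than in cells without Ccl5, other than Klrd1. Of 14 tested of 18 listed, 13 were called higher and 0 lower, and the other 4 had too few counts. Most of these genes are nearly absent without Ccl5 and passed the count filter through the members, so the count describes the genes that passed and not the whole list. Klrc1, the inhibitory NKG2A receptor, stood at 164, 82.7, 118 and 132 CPM against 8.15, 3.12, 7.61 and 10.5 (log2 fold 4.20, SE 0.13, edgeR adjusted p = 1.0e-14). Klrk1, the activating NKG2D receptor, stood at 85.3, 79.2, 71.6 and 65.2 CPM against 4.13 to 6.77, a log2 fold of 3.75 (SE 0.14). Klre1 stood at 37.5, 21.7, 25.1 and 29.7 CPM against 0.258 to 0.666. Klra7, a Ly49 receptor, stood at 30.3, 19.9, 8.35 and 16.3 CPM against 0.0581 to 0.167. Klra genes are near-identical copies, so reads may be split among them, and they are better read together: a UMI of any of 11 Klra genes was found in 12.9%, 12.4%, 16.7% and 16.8% of members and in 0.248% to 0.432% of cells without Ccl5. Klrd1, the partner chain of NKG2 receptors, was already present without Ccl5 at 142 to 156 CPM and stood at 220 to 261 CPM in members, a log2 fold of 0.80 that was not called. Klrg1, a receptor of terminal effectors, had a UMI in 3, 2, 6 and 0 members.

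Other lymphocytes that carry such receptors were looked for in the same cells. The defining natural killer gene Ncr1 had 0 UMIs in members of all 4 libraries, and Trdc is 0 by the rule. The list of 8 natural killer genes summed to 146, 88.0, 133 and 122 CPM in members against 20.4 to 32.8 CPM without Ccl5, most of it Eomes and Klre1. Of that list 5 genes were tested and 5 were called higher, with a median log2 fold of 3.27. Without cells of very high UMI count or another lineage, 5 of 5 were called higher, with a median of 4.33. Of 8 gamma delta genes, Trdv4 and Sox13 were at 0, and the list summed to 17.5, 7.04, 16.1 and 43.7 CPM against 0.781 to 3.33. In KO-DOX 28 of 47 Trgv2 UMIs came from 1 cell. Of the innate-like list, Il17a was at 0 and Zbtb16 had a UMI in 1, 3, 0 and 1 members, but Cd163l1 stood at 27.2, 15.2, 29.2 and 22.98 CPM against 0.112 to 0.610. The part of such cells in the receptor result was not tested.

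Memory genes were higher and naive genes partly lower. Of 19 tested memory and virtual memory genes other than Ly6c2 and Samd3, 15 were called higher and 0 lower, with a median log2 fold of 1.73. Cd44, the adhesion receptor of antigen-experienced cells, stood at 71.4, 82.7, 93.7 and 86.7 CPM against 20.4 to 23.9 (log2 fold 1.98, SE 0.10, edgeR adjusted p = 8.2e-12). Il2rb, the receptor chain for IL-2 and IL-15, stood at 135 to 156 CPM against 42.8 to 47.9, a log2 fold of 1.73 (SE 0.07). Itgb1, the integrin beta-1 chain, stood at 602, 515, 475 and 411 CPM against 167, 114, 173 and 143. The calcium-binding genes S100a4 and S100a6 had log2 folds of 3.42 and 3.06, and S100a6 was found in 78, 98, 100 and 98 members.

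Of 16 naive and quiescence genes, 3 were called lower and 0 higher, with a median of -0.60. Ccr9, a gut homing receptor, stood at 7.26, 12.3, 1.79 and 7.41 CPM in members against 67.5, 72.2, 63.0 and 70.0 (log2 fold -3.16, SE 0.19, edgeR adjusted p = 1.2e-10). Igfbp4, an insulin-like growth factor binding protein, stood at 47.8, 50.4, 23.9 and 55.6 CPM against 185, 212, 152 and 189. Lef1, Ccr7 and Tcf7 were lower in all 4 libraries by less than 2-fold, with log2 folds of -0.84, -0.88 and -0.63, and are not called. Il7r stood at 493, 642, 564 and 721 CPM against 410, 577, 523 and 561. Ccr7 stood at 336, 341, 282 and 372 CPM in members against 605 to 707.

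**Figure D3:**
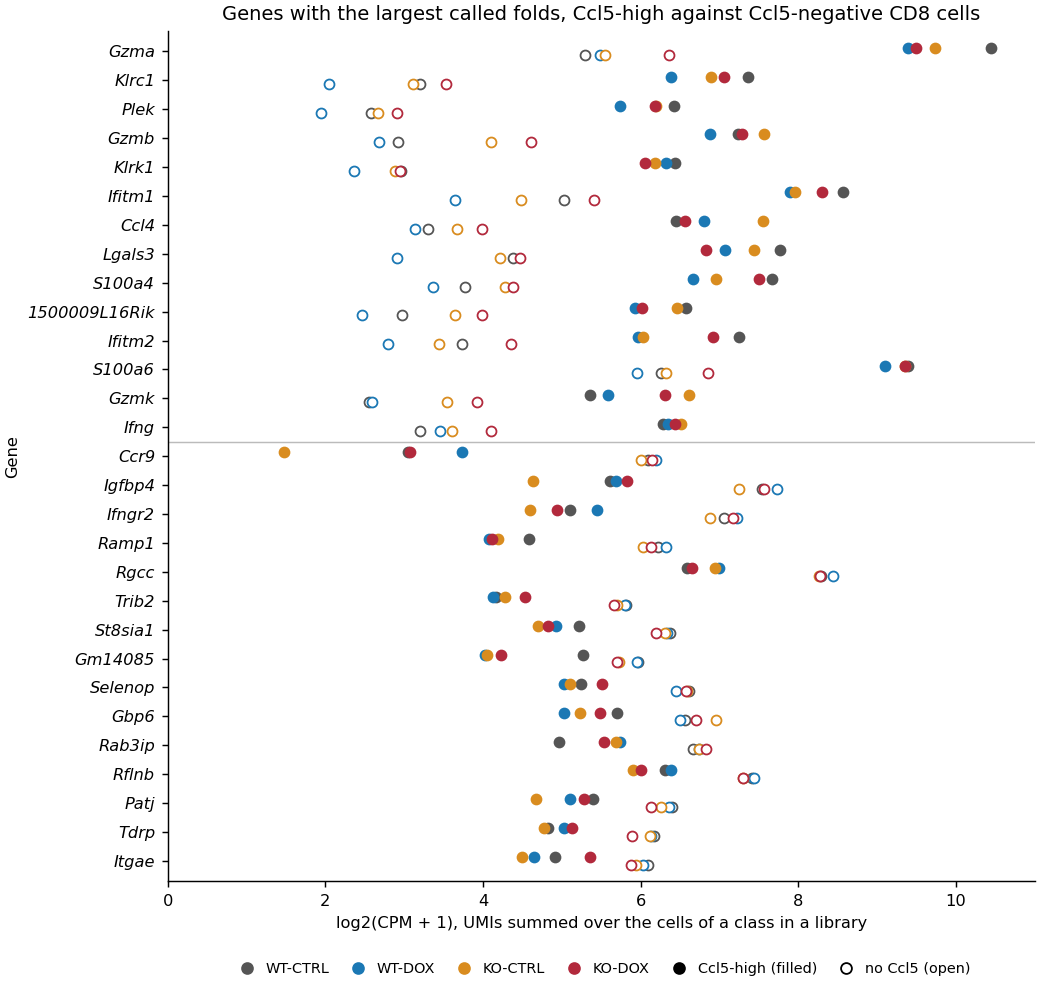
The 29 genes with the largest called folds, among genes with a mean of at least 50 CPM in either class, between Ccl5-high cells (filled) and cells without Ccl5 (open), 14 higher above the grey line and 15 lower below it, leaving out Gzmm, a marker of the class. Each point is 1 library on the scale log2(CPM + 1); in every gene the 4 filled points lie on 1 side of the 4 open points.

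Among transcription factors of effector cells, 6 of 16 were called higher and 0 lower. Eomes, a T-box factor of memory cells, stood at 64.1, 52.2, 85.9 and 66.0 CPM against 19.1 to 31.1 (log2 fold 1.58, SE 0.10). Tbx21, which encodes T-bet, stood at 31.5, 36.4, 29.2 and 26.0 CPM against 3.07 to 4.83, a log2 fold of 2.94 (SE 0.19). Hopx stood at 275, 243, 285 and 277 CPM against 75.4 to 86.9. The others called were Zeb2, Prdm1 and Bhlhe40, and Id2 at a log2 fold of 0.89 was not called.

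Chemokines and cytokines other than Xcl1 were called higher for 6 of 13 genes, with a median log2 fold of 0.997, or 0.26 with each cell thinned to 1500 UMIs. Ccl4, an inflammatory chemokine, stood at 86.5, 111, 187 and 93.4 CPM against 7.81 to 14.8 (log2 fold 3.55, SE 0.15). Ifng, the cytokine interferon gamma, stood at 76.9, 80.3, 90.1 and 85.3 CPM against 8.15, 9.98, 11.2 and 16.1, a log2 fold of 2.99 (SE 0.13). Fasl, a death ligand, stood at 15.7, 21.7, 33.4 and 28.9 CPM against 1.89 to 3.22. Tnf stood at 28.6 to 41.0 CPM against 25.3 to 35.5 and was not called.

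Of 21 cytokine receptors and feedback genes, 9 were called higher and 0 lower: Il18rap and Il18r1, the receptor chains for IL-18, had log2 folds of 3.15 and 1.59, and the IL-12 receptor chains Il12rb1 and Il12rb2 1.31 and 1.46. Of 17 residency and migration genes, 6 were called higher and 1 lower. Ccr2 stood at 35.1, 26.4, 43.0 and 31.1 CPM against 1.23 to 2.77, and Cxcr3 of the memory list at 49.6 to 65.2 CPM against 9.20 to 18.0. Itgae, the CD103 chain that binds epithelium, was the one called lower, at 29.0, 24.0, 21.5 and 40.0 CPM against 57.8 to 67.4 (log2 fold -1.07, SE 0.13). It was not called without WT-DOX (-0.98) or without KO-CTRL (-0.97), nor with a minimum of 1 Ccl5 UMI (-0.94).

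Of 12 inhibitory receptor and exhaustion genes 5 were called higher and 0 lower, with a median of 0.48, or 3 with a median of 0.14 with a minimum of 4 Ccl5 UMIs. Summed, the list stood at 362, 362, 446 and 476 CPM in members against 410, 369, 362 and 387, so the sum was higher in members of the knockout libraries and not in those of the other 2. Havcr2 (TIM-3) had a log2 fold of 2.61 and Tigit 1.34. Pdcd1, which encodes PD-1, the receptor of PD-L1, stood at 5.45, 8.80, 13.1 and 22.2 CPM in members against 4.55, 2.96, 6.45 and 6.58, a log2 fold of 1.31 (SE 0.24). A Pdcd1 UMI was present in 9, 7, 13 and 19 members. Lag3 had a log2 fold of 1.03 (SE 0.17). Tox, a transcription factor of exhausted cells, stood at 106 to 139 CPM against 159 to 187, a log2 fold of -0.44 that was not called.

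In several programmes no gene passed the 2-fold and adjusted p limits together, by edgeR or by DESeq2. Of 16 early T cell receptor response genes 0 were called by either tool, with a median of -0.07, and at an unadjusted edgeR p under 0.05 4 were higher and 6 lower. Of 30 type I interferon genes 0 were called by either tool, with a median of -0.31, and at the unadjusted p 2 were higher and 15 lower. That median was -0.095 without cells of very high UMI count or another lineage, -0.090 without cells holding Mki67 or Top2a and -0.14 with thinned cells. With thinned cells, and with a minimum of 4 Ccl5 UMIs, 1 gene was called higher. Ifitm2, an interferon-induced membrane protein outside this list, and Ifitm1 were called higher. The receptor chain Ifngr2, a subunit of the interferon gamma receptor, was called lower, at 33.3, 42.8, 23.3 and 29.7 CPM against 132, 148, 117 and 143 (log2 fold -1.98, SE 0.09). Of 25 p53 target genes 2 were called higher, Cdkn1a and Gtse1. MHC class I, co-stimulation, glycolysis and mitochondrially encoded genes had 0 called by either tool of 12, 18, 14 and 12, and at the unadjusted edgeR p 2, 7, 11 and 2 were higher and 5, 6, 1 and 0 lower. Over all genes, counts without the 2-fold limit were 1820 higher and 1187 lower, so most differences were below 2-fold.

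Of 20 G2 and M phase genes 18 were called higher in members, and of 18 S phase genes 5. The S phase count was 2 of 18 without WT-DOX, 1 of 18 with a minimum of 4 Ccl5 UMIs and 1 of 16 without cells holding Mki67 or Top2a. Mki67 stood at 166, 90.3, 172 and 107 CPM against 45.9, 19.3, 57.9 and 60.1 (log2 fold 1.69, SE 0.13). A UMI of Mki67 or Top2a was found in 12.9%, 8.39%, 11.9% and 12.4% of members. Without the members of very high UMI count or with another lineage's transcript, 8 of 16 G2 and M genes were called. Of 6 tested dendritic and myeloid genes 5 were called higher, 2 of 6 without the WT-CTRL library, 0 of 2 without those cells and 0 of 6 by DESeq2. Without those cells 8 of 11 granule genes and 12 of 14 killer receptors were called higher, and without cells holding Mki67 or Top2a 8 of 11 and 13 of 14. Memory genes called higher were 12 of 19 without cells of very high UMI count or another lineage, and 11 of 18 without cells holding Mki67 or Top2a.

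The members with granzymes were picked on measured values, so they are described without a test. After thinning, 25, 25, 23 and 22 members had a UMI of Gzma or Gzmb and 252, 269, 268 and 228 had none. Their median depth before thinning was 12756, 6783, 6297 and 6317 UMIs, against 4488.5, 4564, 4559.5 and 4327.5. Mki67 or Top2a was found in 60.0%, 28.0%, 26.1% and 40.9% of granzyme cells and in 3.17%, 4.09%, 2.99% and 5.26% of the rest. Klrc1 was found in 60.0%, 36.0%, 43.5% and 40.9% against 3.17% to 5.70%. The exact intervals of the 2 kinds of cell did not overlap for these 2 readouts in any library. Ccr7 was found in 4.0%, 24%, 13.04% and 13.6% against 44.4%, 38.7%, 32.8% and 43.9%, with intervals that did not overlap in WT-CTRL and KO-DOX and overlapped in WT-DOX and KO-CTRL.

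For Klra genes and Xcl1 the 2 kinds of cell were not separated. A UMI of a Klra gene was found in 4.0%, 4.0%, 0% and 4.55% of granzyme cells, where 0 of 23 cells allows a share of up to 14.8% (exact 95% interval), and in 6.35%, 6.32%, 9.33% and 10.5% of the rest. Xcl1 was found in 4.0%, 12%, 8.70% and 4.55% against 11.5%, 9.29%, 11.9% and 6.14%, with overlapping intervals. Free RNA and doublets were not removed, and granzyme cells were the deeper ones, so the part of depth in this split beyond the thinning was not tested. The split is given for all members, those of very high UMI count or with another lineage's transcript included.

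**Figure D4:**
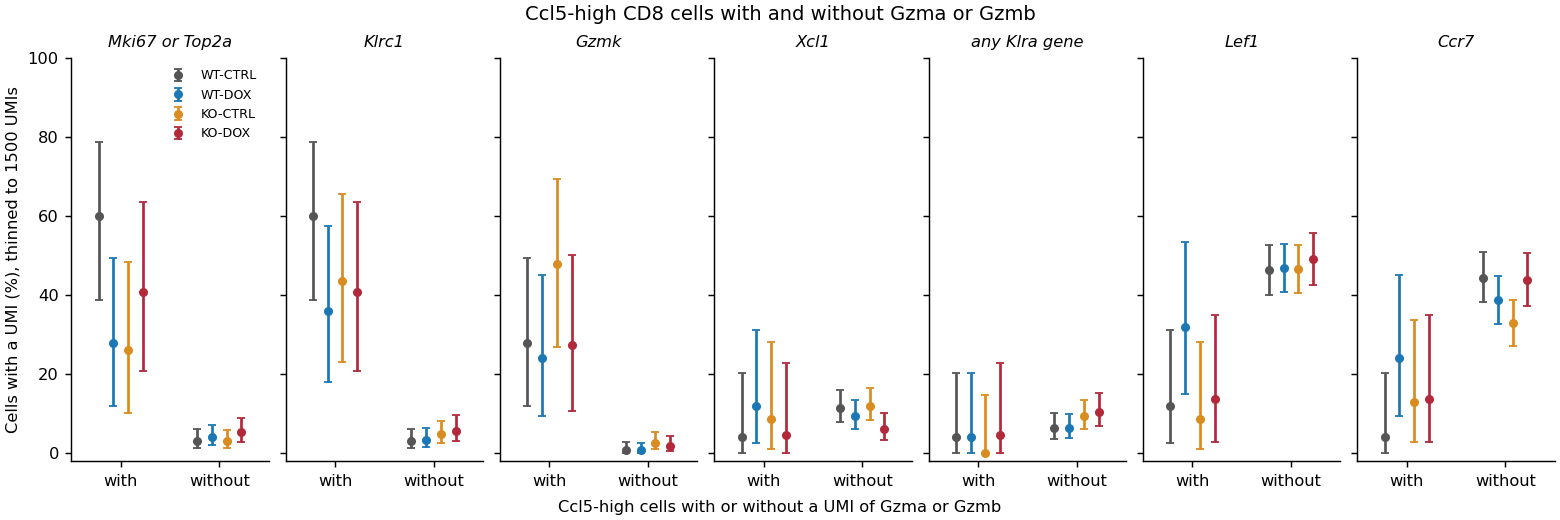
Share of Ccl5-high cells with a UMI of each gene or gene pair (y axis, percent, every cell thinned to 1500 UMIs) in cells with and without a UMI of Gzma or Gzmb (x axis), by library, with exact 95% Clopper-Pearson intervals. Mki67 or Top2a, Klrc1 and Gzmk are higher in granzyme cells, the shares for Lef1 and Ccr7 are lower in each library, and the intervals for Xcl1 and the Klra genes overlap.

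Within members, the 4 libraries differed in few genes. A gene was called apart where its CPM differed by at least 1.5-fold on the log2(CPM + 1) scale with exact Poisson intervals that did not overlap, among genes with a mean of at least 20 CPM. Between WT-DOX and WT-CTRL, 61 of 5572 genes (1.09%) were higher and 133 (2.39%) lower. Between KO-DOX and KO-CTRL, 23 of 5568 (0.413%) were higher and 37 (0.665%) lower. Between KO-CTRL and WT-CTRL, 34 of 5608 (0.606%) were higher and 59 (1.05%) lower, and between KO-DOX and WT-DOX 35 of 5578 (0.627%) were higher and 41 (0.735%) lower. The comparisons share libraries, and a Poisson interval is too narrow for a gene whose UMIs sit in few cells. Without the highest cell of each gene in each library, 149 of 194, 46 of 60, 72 of 93 and 47 of 76 stayed apart. In cells without Ccl5, 159, 38, 60 and 51 of the genes apart had the same direction, and 24, 3, 4 and 11 were apart there too, of 37, 27, 20 and 69 genes apart in that class. The share with the same direction over all genes compared is not given here, so agreement beyond that background cannot be read from these counts.

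Some of the largest values were shared by cells without Ccl5. Zbed5, a transposon-derived zinc finger gene, stood at 1.21, 323, 0.597 and 1.48 CPM in members, high in WT-DOX alone of the 4. In cells without Ccl5 the WT-DOX level was 247 CPM and the others lay at 0.998 to 1.10 CPM. Hnrnpa0, an RNA-binding protein, stood at 41.1, 89.1, 104 and 68.2 CPM in members and at 54.1, 100, 132 and 106 CPM in cells without Ccl5, lowest in WT-CTRL in both classes. Ehbp1 stood at 18.2, 51.0, 40.0 and 49.7 CPM in members, and also lowest in WT-CTRL without Ccl5, at 23.2 CPM.

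Antigen presenting cell genes were apart in WT-CTRL with their UMIs in very few cells. Fscn1, a gene of migratory dendritic cells, had 98 UMIs in 4 members of WT-CTRL, 55 of them in 1 cell, and 2 UMIs in each other library. H2-Aa had 196 UMIs there, 165 of them in 1 cell. Over the dendritic and myeloid list, WT-CTRL members summed to 927 CPM against 395, 233 and 280 in the other 3. Csf1r, C1qa, S100a8 and S100a9 of that list were at 0 in members of all 4 libraries.

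Under doxorubicin in the control genotype, the p53 target Bbc3, which encodes the pro-apoptotic protein PUMA, stood at 66.3 CPM against 32.1 CPM in WT-CTRL (log2 fold 1.02). The intervals, 54.6 to 79.7 and 24.0 to 42.0, did not overlap, and cells without Ccl5 showed 0.83. In the knockout it stood at 50.4 CPM under doxorubicin and 57.9 CPM under control treatment, so that WT-CTRL was the low library. The 14 p53 genes compared had a median log2 fold of 0.04 between WT-DOX and WT-CTRL, with Bbc3 the one apart.

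Granule and cycle genes also set WT-DOX and WT-CTRL apart. Gzma was lower in WT-DOX (log2 fold -1.06, and 0.19 in cells without Ccl5), with 26 and 28 cells holding it. The granzyme cells of WT-CTRL were also the deepest, at a median of 12756 UMIs, and the part of this in the difference was not tested. Klrc1 was lower, at -0.98, and -1.15 without Ccl5. The Gzma and Klrc1 folds are given for all members, those of very high UMI count included. Of 18 G2 and M genes 15 were lower, with a median of -0.94, which was -0.08 without the members of very high UMI count or another lineage and 0.19 without cells holding Mki67 or Top2a. In cells without Ccl5 the G2 and M list was lower too, at 725 CPM in WT-DOX and 1028 CPM in WT-CTRL, against 1953 and 3152 CPM in members. The share of members with Gzma or Gzmb did not separate the 2 libraries at 1500 UMIs. It was 9.03% (5.93 to 13.04) in WT-CTRL and 8.50% (5.58 to 12.3) in WT-DOX. Without the members of very high UMI count or another lineage, the shares were smaller and WT-CTRL had the lower one (values below).

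The type I interferon list had a negative median under doxorubicin in both genotypes, although few of its genes were apart. The median log2 fold was -0.47 between WT-DOX and WT-CTRL, with 5 of 19 genes apart and lower, and -0.37 between KO-DOX and KO-CTRL, with 2 of 20. The list summed to 2034, 1589, 2176 and 1774 CPM in members and to 2564, 2297, 3131 and 2675 CPM in cells without Ccl5, so it was lower under doxorubicin in both classes. Isg15, a ubiquitin-like protein induced by interferon, stood at 78.1, 42.2, 93.1 and 49.7 CPM in members, in library order. In cells without Ccl5 it stood at 57.0, 59.7, 119 and 72.1 CPM, where the control-genotype libraries did not differ in the same way. Slfn5 stood at 39.9, 27.0, 50.1 and 18.5 CPM. The direction of both medians held in each alternative run.

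Xcl1 was lowest in KO-DOX. It stood there at 51.9 CPM (40.5 to 65.6), against 86.5 (73.0 to 102) in KO-CTRL, 141 (123 to 160) in WT-DOX and 92.0 (77.9 to 108) in WT-CTRL. At 1500 UMIs a cell, Xcl1 was found in 10.8%, 9.52%, 11.7% and 6.0% of members, with intervals that overlap. In CPM, the log2 fold of KO-DOX against WT-DOX was -1.42, and -1.41 without the highest cell. Cells without Ccl5 went the other way, at 0.77. The excess of WT-DOX over WT-CTRL, 0.61, was 0.39 without the highest cell and no longer apart.

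Some single genes, described because they were apart, were higher in KO-CTRL than in WT-CTRL. Ccl4 stood at 187 CPM (167 to 209) in KO-CTRL and 86.5 (72.9 to 102) in WT-CTRL, a log2 fold of 1.10, with 83 and 46 cells. Gzmk stood at 96.7 CPM (82.3 to 113) against 39.9 (30.9 to 50.8), a log2 fold of 1.25, with 30 and 17 cells, and cells without Ccl5 showed 0.98. Rgs1, a regulator of chemokine receptor signalling, stood at 132 CPM (116 to 151) in KO-CTRL, against 62.3, 65.7 and 71.2 CPM in the other 3. Fasl, Tigit and Cd160 were also apart, with log2 folds of 1.04, 0.80 and 0.85. The lists did not share this direction: granule genes summed to 3573 CPM in KO-CTRL and 3877 CPM in WT-CTRL, and killer receptors to 687 and 770 CPM.

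Between KO-DOX and KO-CTRL, Ccl4 (93.4 against 187 CPM, log2 fold -0.99), Rgs1 (-0.89) and Isg15 (-0.89) were lower. Gimap7, a GTPase of lymphocytes, was higher at 97.1 against 49.5 CPM (0.96, and 0.08 in cells without Ccl5), and so was Igfbp4 at 55.6 against 23.9 CPM (1.19). Between KO-DOX and WT-DOX, Tigit stood at 60.8 CPM (48.4 to 75.5) against 32.3 (24.3 to 42.0), a log2 fold of 0.89, and Itga4, the integrin alpha-4 chain, at 104 CPM (87.3 to 122) against 56.9 (46.1 to 69.4). In KO-DOX against WT-DOX, 7 of 11 genes of the mitochondrial genome were lower, with a median of -0.72, and mt-Cytb differed by -0.67 in cells without Ccl5 too. The mitochondrial list summed to 714 and 1123 CPM in members of KO-DOX and WT-DOX, and to 604 and 978 CPM in cells without Ccl5. These transcripts were scarce throughout, with a median share of 0.0323% and 0.0567% of UMIs over all barcodes of KO-DOX and WT-DOX.

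**Figure D5:**
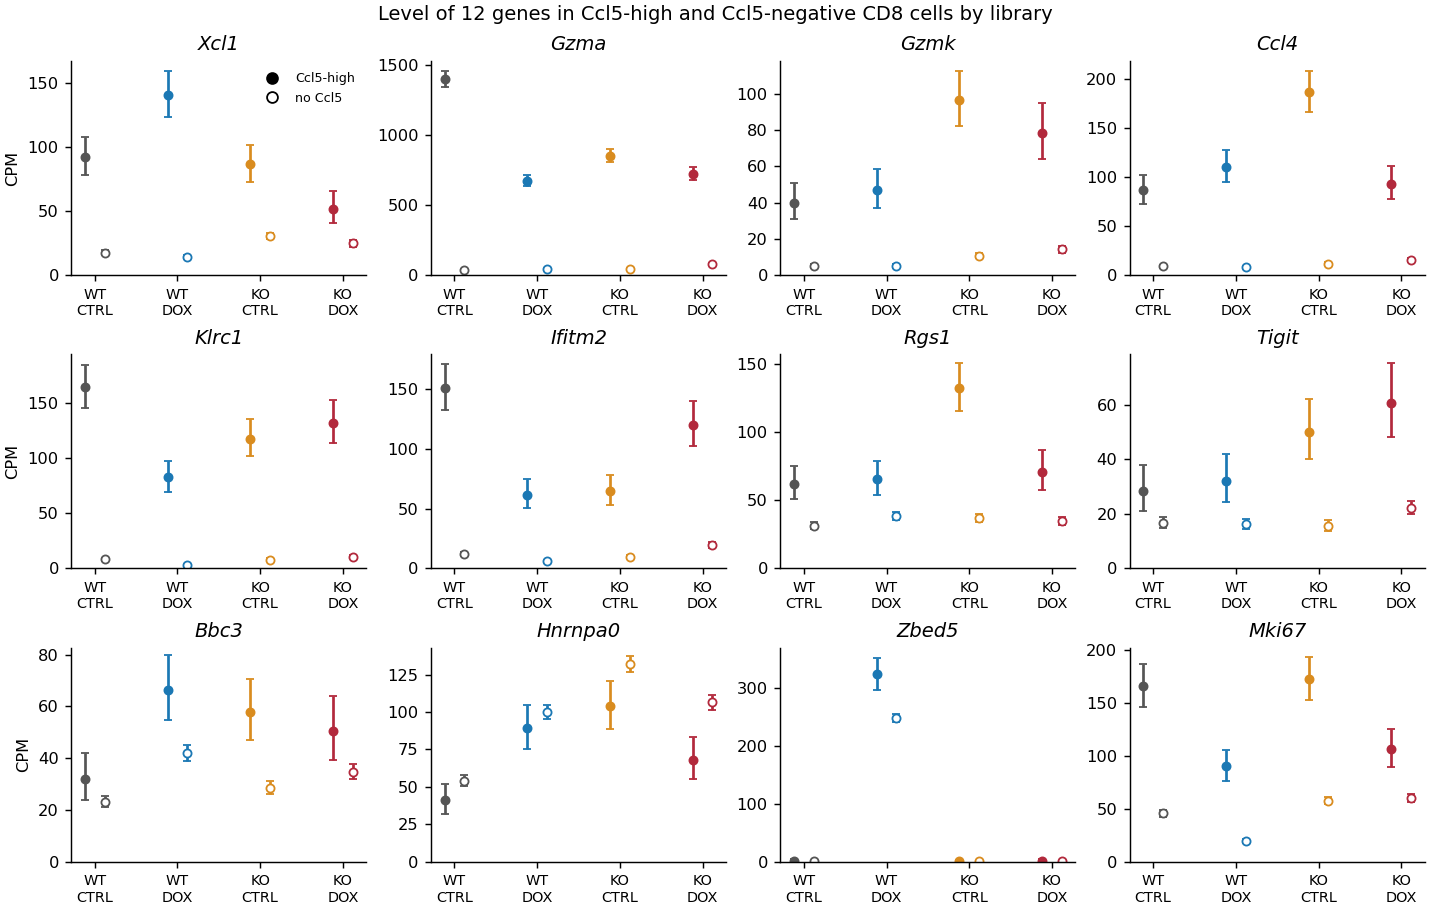
Level of 12 genes (y axes, CPM, linear from 0) in each library (x axes), in Ccl5-high cells (filled) and cells without Ccl5 (open), with exact Poisson 95% intervals. Xcl1 is lowest in KO-DOX at 51.9 CPM, Ccl4 and Rgs1 highest in KO-CTRL at 187 and 132 CPM, and Zbed5 is near 0 in both classes outside WT-DOX.

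T cell receptor segment pairs were spread over many cells. A Trbv segment was assigned, as the Trbv gene with most UMIs, in 231, 264, 250 and 214 members, and both a Trav and a Trbv segment in 143, 166, 157 and 138. These held 129, 144, 140 and 128 distinct pairs, and the most frequent pair occurred in 3, 3, 3 and 2 cells. Of all pairs of cells, 0.158%, 0.183%, 0.155% and 0.106% shared both segments, against 0.161% to 0.169% in cells without Ccl5. Segments without junction sequences do not identify clones.

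Segment use was broad. Trbv12-2 was used by 11.3% (7.49 to 16.1), 7.58% (4.69 to 11.5), 11.2% (7.57 to 15.8) and 12.6% (8.48 to 17.8) of members, and by 6.63% to 6.99% of cells without Ccl5. For this segment, picked after its values were seen among 35, the intervals of members and of cells without Ccl5 failed to overlap in KO-DOX only. Trbv12-1 and Trbv13-2 took 7.48% to 12.9% and 7.94% to 12.5% of members. Single segments were among the largest differences between libraries in summed UMIs, such as Trbv31 with 13.3 CPM in KO-DOX against 58.5 CPM in KO-CTRL (log2 fold -2.05, and 0.03 in cells without Ccl5), where 6 and 20 cells held it. Near-identical segments such as Trav16n may share reads.

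The 2 motifs were also counted in promoters of the called genes. The T-box letters were found in 24 of 534 promoters of genes called higher (4.49%) and in 2 of 126 promoters of genes called lower (1.59%). The share was 3.34% of all 10976 promoters of tested genes. The markers whose matches are shown above were not left out of these counts. The Runx letters were found in 5.99%, 4.76% and 3.95%. These are descriptions of letters within 300 bases, and no test was made of them.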

How the data were processed

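The libraries were made with a 5′ single-cell kit (SeekOne DD), per the labels' protocols, and mm10 is the build in the submitters' processing notes; no source used here names the counting program. The deposited matrices hold raw UMI counts per barcode for 32285 genes, and how the authors chose barcodes is not stated. The filter on barcodes was a minimum of 300 detected genes and a maximum of 10% mitochondrial UMIs. The members, gene lists and comparisons were chosen with earlier results of these data known.

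UMIs were summed per class and library into 8 sums and fitted with edgeR 4.0.16 (TMM scaling, library block, quasi-likelihood test, R 4.3.3). The block is the library that both classes came from. Standard errors are the absolute log2 fold over the root of F. DESeq2 1.42.0 was an alternative. Libraries were compared in CPM with exact Poisson 95% intervals, with a pseudocount of 1 for log2 folds and a mean of at least 20 CPM, without a test. Cell shares have exact Clopper-Pearson 95% intervals (scipy 1.17.1), and share ratios 95% intervals on the log scale. Methods were tested on simulated counts. Genes named were a fixed set of T cell genes; the 15 called genes with the largest fold each way among those of at least 50 CPM in either class; per library comparison, the 4 largest folds each way among genes apart with at least 50 CPM and 50 UMIs in the higher library; and up to 3 members of each list with the largest fold each way. Il12rb1, Il12rb2, Ctsw, Klra7, Cd163l1, Trgv2 and others outside that rule were named after their values were seen. The 26 lists include 6 of other cell types. In members against cells without Ccl5, apoptosis regulators had 1 called higher of 17, stress genes 1 of 12, CD4 and regulatory T cell genes 1 of 7 (161 to 205 CPM against 161 to 198), gamma delta genes 1 of 1, innate-like genes 1 of 2 and B cell genes 1 of 3 (117 to 120 CPM against 154 to 171). Some genes of the lists are not reported here by name.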

Additional observations from a re-analysis of the deposited data

Results flagged for a closer look

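Only the named genes and the genes of the lists were searched here, and some of them were named because they were apart between libraries. In 4 of these genes the members' doxorubicin difference pointed one way in the control genotype and the other way in the knockout. Each had Poisson intervals that did not overlap. The count does not cover all genes compared. With 1 library per group these differences between genotypes were not tested. Hnrnpa0 had a log2 fold of 1.10 between WT-DOX and WT-CTRL and -0.60 between KO-DOX and KO-CTRL, and cells without Ccl5 gave 0.88 and -0.31. Ifitm2, an interferon-induced membrane protein found in 20, 13, 11 and 14 members in the report's library order, had -1.28 and 0.89, and cells without Ccl5 gave -0.93 and 0.92. Trav16n, a receptor segment that may share reads with near-identical copies, had 1.48 and -0.85, and cells without Ccl5 gave 0.03 and -0.26. Xcl1 had 0.61 and -0.73, but the first was 0.39 and no longer apart without the highest cell of each library, and cells without Ccl5 gave -0.31 and -0.29.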

How the results depend on the processing

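No paired analysis was possible between the study's groups because each is 1 library; in the class comparison the library is the block, and with no replicate block 545 genes were called higher and 147 lower against 576 and 146. With no minimum fold the counts were 1820 and 1187. Higher calls were 342 without cells of very high UMI count or with another lineage's transcripts, 345 without cells holding Mki67 or Top2a and 278 with cells thinned to 1500 UMIs, where 9384 genes were tested. DESeq2 called 91 lower. Leaving out 1 library gave 510 to 607 higher and 112 to 164 lower. Of the named genes' class results under the alternatives, 800 kept their call, 19 lost it and 5 gained it.

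Genes apart between WT-DOX and WT-CTRL numbered 104 with a minimum of 1 Ccl5 UMI, 68 without cells of very high UMI count or other lineage, 87 without cells holding Mki67 or Top2a, 98 with equal weight for each cell and 101 at 50 CPM or more. At 50 CPM the other comparisons, in the report's order, gave 26, 42 and 32. In the main run, lists with a median of at least 0.2 in size numbered 9 of 21, 2 of 20, 6 of 21 and 8 of 20, in the report's order of comparisons. For WT-DOX against WT-CTRL they numbered 4, 5, 2, 3 and 5 with a minimum of 1 UMI, of 4 UMIs, without deep or other-lineage cells, without cycling cells and with equal weights. They numbered 4, 8, 4 and 4 under the first 4 of these for KO-DOX against KO-CTRL. They numbered 10 without cycling cells and 3 without the highest cell of each gene (chosen after seeing the data) for KO-CTRL against WT-CTRL. For KO-DOX against WT-DOX they numbered 4 with 1 UMI, 4 with 4 UMIs, 5 without cycling cells and 5 with equal weights.

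Some list medians changed sign. Without cycling cells, between WT-DOX and WT-CTRL, memory genes gave 0.0029 and G2 and M genes 0.187. Between KO-CTRL and WT-CTRL, S phase genes gave -0.267 with 4 UMIs and -0.0113 with equal weights, and G2 and M genes 0.225 with 1 UMI and 0.153 without deep or other-lineage cells. Between KO-DOX and WT-DOX, S phase genes gave 0.0454 with 1 UMI, 0.125 without deep or other-lineage cells and 0.0416 without cycling cells, and G2 and M genes -0.328 and -0.324 without deep or other-lineage cells and without cycling cells. The share with Gzma or Gzmb at 1500 UMIs, without deep or other-lineage cells, was 3.85% in WT-CTRL, 5.34% in WT-DOX and 5.04% in KO-CTRL, and without cycling cells 3.73% in WT-CTRL, 3.91% in KO-CTRL and 5.02% in KO-DOX. Reversed genes were H2-Aa between KO-CTRL and WT-CTRL (0.42 with 4 UMIs), Trbv14 (-0.20 and -0.068 without deep or other-lineage and without cycling cells), Hist1h1a (0.85 with 4 UMIs) and Hist1h1d (0.65 without cycling cells) between KO-DOX and KO-CTRL, Cenpf (-1.08 without deep or other-lineage cells) and Trbv3 (-0.70 with 4 UMIs, -0.10 without deep or other-lineage cells) between KO-DOX and WT-DOX, and Trbv17 between WT-DOX and WT-CTRL (0.038 with 4 UMIs). The cause was not tested.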

Other observations

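Some single genes not described above were picked after their folds were seen. Itga1, the collagen-binding integrin chain, had a log2 fold of 3.93, Anxa1 3.07, Anxa2 2.38, Lgals3 3.43 and Lgals1 2.21 between members and cells without Ccl5, each called higher by edgeR. Il10ra, a receptor chain for the cytokine IL-10, had 1.61 and stood higher in KO-CTRL than in WT-CTRL members (log2 fold 1.51). Among genes called lower, Ramp1, a receptor-modifying protein, had -1.89 and the transcription factor Sox4 -1.58. Between KO-DOX and WT-DOX members, the chaperone Hspd1 was lower (-0.81) and higher in cells without Ccl5 (0.66).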
